A study of Mus musculus with 10 samples.

Results

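Bulk liver RNA sequencing of 2 mouse models of cholangitis was used to describe 36 genes of coagulation and fibrinolysis, taken by symbol from a fixed list of known clotting factors, inhibitors, plasmin system genes and thrombin-type receptors. All 36 were found among the 59408 gene models of the table, and all 36 passed the filter on low values that 18390 models passed. By role they comprise 17 clotting and contact factors, 10 anticoagulants and inhibitors, 7 genes of fibrinolysis and 2 protease-activated receptors. The livers came from wild-type C57BL/6 mice and were collected at day 35.

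The 3 PBC mice (numbers 7, 8 and 9) carried a model of autoimmune primary biliary cholangitis. They were given 100 µg of 2-octynoic acid coupled to bovine serum albumin into the peritoneum at days 0, 14 and 28, first in complete and later in incomplete Freund's adjuvant. The first 2 of these injections were accompanied by 2 µg of intravenous α-galactosylceramide, which is a glycolipid ligand of NKT cells. The 3 PSC mice (11, 13 and 14) modelled primary sclerosing cholangitis without autoimmunity and ate a diet with 0.089% of DDC (3,5-diethoxycarbonyl-1,4-dihydrocollidine), which injures bile ducts, for 2 weeks and again for 1 week after 1 week on regular food. The 4 control mice (1 to 4) were untreated, so none received adjuvant, albumin conjugate or glycolipid, and the agents within the PBC protocol cannot be told apart. Neither the sex nor the age of the mice is given in the sources read here.

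Blood clotting is a cascade of plasma proteases, most of them made by hepatocytes, that ends with thrombin cutting fibrinogen into fibrin. Anticoagulants such as antithrombin and the protein C system hold thrombin in check, and plasmin, formed from plasminogen, dissolves the clot. Fibrinogen is also an acute phase protein whose genes are induced by interleukin-6, while tissue factor, thrombomodulin, the urokinase receptor and the protease-activated receptors act on the surface of endothelial, biliary, stromal or myeloid cells.

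Levels are reads per gene model as normalised by the authors with DESeq2, and a change is the log2 ratio of 2 groups after 1 was added to these values. A gene was called where limma, fitted over the 10 livers and adjusted over all 18390 genes, gave an adjusted p under 0.05. Depth was 38.3 to 95.4 M (mega) reads per liver. Mitochondrial models took 13.7% of the reads of control 2 and up to 8.67% of those of any other liver, and PBC 7 had 4.24% on 1 unnamed model of chromosome 17, against at most 0.831% elsewhere. PBC 8 was the highest or the lowest of the 3 PBC livers for 34 of the 36 genes (17 and 17). PBC 7 was the highest for 5 and the lowest for 14, and PBC 9 the highest for 14 and the lowest for 5. Of 3 livers, 1 is always the highest and 1 the lowest, so each is often at an edge. All 10 hepatocyte markers were detected in each group, with a summed level of 9716382 to 14515638 in PBC, 7030512 to 8693266 in PSC and 10140893 to 11381938 in control livers. Alb, named here because of its level, reached 8634921 by itself, so the sum is weighted towards this gene. By gene, 1 of the 10 rose in PBC (background 7.6%), or 0 without control 1 or PBC 9, with a median change of 0.18. In PSC, 0 were called lower with limma (background 6.48%) and 2 each with edgeR and DESeq2, with a median of -0.12. In bulk tissue, fewer cells of a type and less RNA per cell cannot be told apart.

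Fibrinogen took the largest share of the reads on these genes. The upstream sequences of its 3 chain genes, which lie next to each other on chromosome 3, are shown first because they share an interleukin-6 response motif, and because the Fga and Fgb chains were among the genes that rose in PBC. Each line gives the 250 bases before the annotated start, read 5′ to 3′ on the strand of the gene, from RefSeq on GRCm38.p6, with CTGGGA, the core of that motif, in capitals. The positions are chr3:83025903-83026152 for Fga, chr3:83049864-83050113 for Fgb and chr3:83007474-83007723 for Fgg.
Fga upstream, plus strand: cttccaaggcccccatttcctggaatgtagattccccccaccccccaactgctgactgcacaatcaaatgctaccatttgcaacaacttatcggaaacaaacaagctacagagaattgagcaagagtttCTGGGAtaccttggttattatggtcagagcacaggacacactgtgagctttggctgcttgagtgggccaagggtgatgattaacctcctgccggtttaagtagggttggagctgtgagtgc
Fgb upstream, minus strand: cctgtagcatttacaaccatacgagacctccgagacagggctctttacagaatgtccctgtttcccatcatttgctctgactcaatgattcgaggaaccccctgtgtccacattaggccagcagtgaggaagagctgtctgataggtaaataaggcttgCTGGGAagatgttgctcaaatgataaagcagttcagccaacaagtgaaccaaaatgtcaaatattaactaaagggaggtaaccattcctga
Fgg upstream, plus strand: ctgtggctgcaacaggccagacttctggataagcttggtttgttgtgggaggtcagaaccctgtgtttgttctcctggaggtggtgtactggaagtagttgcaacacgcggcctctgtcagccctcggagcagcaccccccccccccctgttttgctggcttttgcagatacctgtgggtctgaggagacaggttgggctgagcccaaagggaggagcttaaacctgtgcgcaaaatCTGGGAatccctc

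CTGGGA occurred once in each of these stretches, starting 121 bases before the start of Fga, 91 before Fgb and 13 before Fgg, and in each on the strand of the gene. RefSeq promoters were found for 29 of the 36 genes. On either strand, CTGGGA was present in 11 of the 29 (37.9%), against 26.8% of 27025 promoters of the same length. TTNCNNGAA, the palindrome bound by STAT factors, was present in 7 of the 29 (24.1%), against 11.2% of all promoters. TTGCNNAA, a C/EBP motif, was present in 9 (31.0%), against 9.55%, and GTTAAT, part of the HNF1 motif, in 5 (17.2%), against 6.52%. Fga and Fgb held all 4 motifs and Fgg held CTGGGA alone. A match of letters is a description of the sequence, not a bound site.

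In PBC against control livers, 9 of the 36 genes were higher (25.0%), against 7.6% of all genes tested, and 1 was lower, against 2.34%. In either direction that is 27.8% of the 36, against 9.94% of all genes. The genes higher in PBC were Fga, Fgb, Kng1, Kng2, F12, Procr, Plg, Plaur and Serpinf2, and the gene lower was Serpine2. In PSC against control livers, 6 were higher (16.7%, background 8.25%) and 2 were lower (5.56%, background 6.48%), together 22.2% against 14.7%. Those higher in PSC were Plat, F2rl1, Plaur, Procr, Serpine2 and Kng2, and those lower were Proz and F13b. Between PBC and PSC, 2 genes were lower in PBC (5.56%, background 1.13%), Serpine2 and F2rl1, and 0 were higher (background 1.11%, or 2.24% in either direction). That 0 from limma stands beside 4 genes at an unadjusted p under 0.05, 0 with edgeR and 1 with DESeq2. The opposite changes of Serpine2 were known from these data when the genes were chosen. Counts that include Serpine2 are therefore not independent of that choice. The counts of roles and lists given below are to be read beside these background shares.

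The median change of the 36 genes was 0.43 in PBC against control, 0.22 in PSC against control and 0.28 in PBC against PSC, whereas over all genes it was 0.01, 0.06 and 0.02. The sign of the change was positive for 28 of the 36 genes in PBC and for 22 in PSC. Over all 18390 genes tested it was positive for 9280 in PBC and for 9829 in PSC. Both comparisons use the same 4 controls. The 3 PBC livers lay wholly above the 4 controls for 14 genes (38.9%, background 12.7%) and wholly below for 2 (5.56%, background 6.89%). The PSC livers lay wholly above the controls for 9 genes (25.0%, background 15.9%) and wholly below for 4 (11.1%, background 15.6%). The PBC livers lay wholly above the PSC livers for 9 (background 14.6%) and wholly below for 4 (background 12.6%).

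Leaving out single livers ended most of these calls. Of the 9 genes higher in PBC, the same call was kept by 2 on omission of control 1, 6 of control 2, 3 of control 3, 7 of control 4, 2 of PBC 7, 8 of PBC 8, 1 of PBC 9, 6 of PSC 11, 5 of PSC 13 and 4 of PSC 14. Serpine2, the 1 gene lower in PBC, kept its call on omission of control 3 or PBC 8 and lost it on omission of any other liver, and 4 more genes were called lower without PBC 8. Of the 6 higher in PSC, 4 were kept on omission of control 1 or PSC 13, 5 of PSC 11 and 3 of PSC 14, and all 6 on omission of any other liver. Of the 2 lower in PSC, 0 were kept on omission of control 1, control 4 or any PSC liver, and 1 on omission of control 3 or PBC 7. Without PBC 8, 2 more genes were called lower in PSC. Of the 2 lower in PBC than in PSC, 1 was kept on omission of PBC 7, PBC 8 or any PSC liver. Without both control 2 and PBC 7, an alternative added after the data were seen, 3 genes were higher and 0 lower in PBC. Under each of the 21 alternatives run, the calls of Procr in PBC, of Plat, Plaur and F2rl1 in PSC, and of Serpine2 in PBC against PSC were kept. The Serpine2 contrast was known when the genes were chosen.

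**Figure D1:**
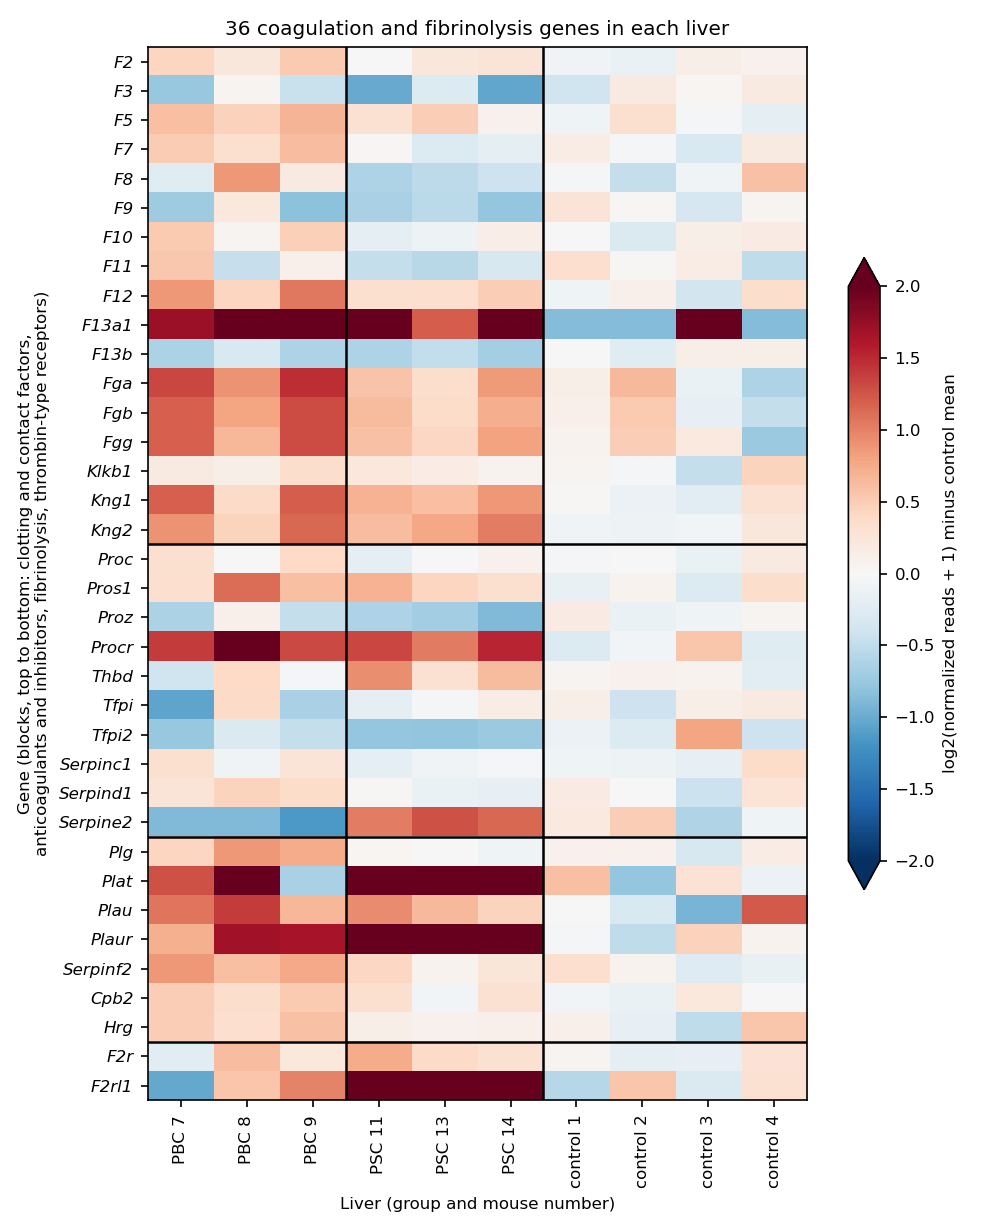
Each row is 1 of the 36 genes, in blocks by role, and each column is 1 liver, with PBC left of PSC and controls on the right. The colour is log2(normalised reads + 1) minus the control mean of the gene, limited to 2 in either direction. Fga, Fgb, Fgg, Kng1 and Procr are above the control mean in each PBC liver, and Plat, Plaur and F2rl1 are more than 2 above it in each PSC liver.

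Among the 17 clotting and contact factors, 5 rose in PBC (29.4%, background 7.6%), with a median change of 0.48 over the 17. In PSC, 1 rose and 1 fell (5.88% each, background 8.25% and 6.48%), with a median of 0.16. Fga, which encodes the Aα chain of fibrinogen (chromosome 3, 83026153 to 83033615, mm10), had 724282, 536854 and 803835 normalised reads in PBC 7, 8 and 9. It had 428677, 367665 and 521645 in PSC 11, 13 and 14, and 311079, 449909, 261990.4 and 188361 in controls 1 to 4. The PBC livers all lay above the PSC and control livers, and PSC 13 and PSC 11 lay within the range of the controls, with control 2 the highest control. Fga rose in PBC by 1.24 (SE 0.31, adjusted p = 0.026, n = 3 and 4, limma), a 2.35-fold difference. In PSC its change was 0.59 (SE 0.31, adjusted p = 0.224).

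Fgb, the Bβ chain gene (chromosome 3, 83042246 to 83049863), had 739012, 556430.4 and 798308 normalised reads in PBC livers. In PSC livers it had 499312, 414921 and 535949, and in controls 347992, 466541, 289311 and 232817. All PBC livers lay above all others, and PSC 13 lay below control 2. Fgb rose in PBC by 1.09 (SE 0.29, adjusted p = 0.031, limma), and its change in PSC was 0.57 (SE 0.29, adjusted p = 0.203). Fgg, the γ chain gene (chromosome 3, 83007724 to 83015055), had 872944, 605354 and 940293 in PBC, 576752, 512198 and 670057 in PSC, and 401463, 536206, 436428 and 227687 in control livers. The PBC livers of Fgg lay above all controls, but PBC 8 lay below PSC 14. Its change in PBC was 1.05 (SE 0.32, adjusted p = 0.0544), which did not pass with limma and passed with edgeR (adjusted p = 0.0485) and DESeq2 (adjusted p = 0.0117).

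The 3 fibrinogen genes together took 2.21% ± 0.18 of all reads in PBC (SD, n = 3), 1.64% ± 0.18 in PSC (n = 3) and 1.16% ± 0.37 in control livers (n = 4). Fga over Fgb, per base of transcript, averaged 1.45 ± 0.031 in PBC, 1.33 ± 0.088 in PSC and 1.32 ± 0.094 in controls. For Fgg over Fgb the ratio was 2.58 ± 0.12 in PBC, against 2.69 ± 0.50 in controls. Per kilobase of the principal transcript, Fgg averaged 475633 normalised reads in PBC, 345921 in PSC and 236251 in control livers, above Fga at 266070.2 in PBC, 169822 in PSC and 117060.3 in control livers. The call of Fga in PBC ended on omission of 1 of 4 livers, control 1 or 3 or PBC 7 or 9 (adjusted p 0.0515 to 0.113), and that of Fgb without control 1, 3 or 4, PBC 7, PBC 9 or PSC 14 (0.0512 to 0.126). Of 19 acute phase genes, 16 rose in PBC and 15 in PSC, and the list had a summed level of 3341657 to 4321457 normalised reads in PBC, 3276180 to 5028884 in PSC and 1000514 to 1360583 in control livers. Its part in the fibrinogen values was not tested.

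The contact system, a set of plasma factors that start clotting on charged surfaces and release bradykinin, supplied the other 3 factors that rose in PBC. Kng1 encodes kininogen, the precursor of bradykinin (chromosome 16, 23058300 to 23082078), and had 325996, 185733 and 328413 normalised reads in PBC, 231429, 215357 and 259831 in PSC, and 144979.7, 131765, 121784 and 176638 in control livers. All 6 cholangitis livers lay above the 4 controls, with PBC 8 the lowest of them. Kng1 rose in PBC by 0.93 (SE 0.26, adjusted p = 0.0381, limma). In PSC the change was 0.72 (SE 0.26, adjusted p = 0.0759, limma). It passed there with DESeq2, equal totals, only the compared groups, quality weights and without PBC 8.

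Kng2, the neighbouring second kininogen gene of the mouse (chromosome 16, 22985852 to 23029101), had 45175, 33098 and 53706 in PBC, 37000.0, 41209 and 49449 in PSC, and 23064, 22494, 23384 and 28265 in control livers. Both models again lay wholly above the controls. It rose in PBC by 0.83 (SE 0.21, adjusted p = 0.0242) and in PSC by 0.80 (SE 0.21, adjusted p = 0.022, limma), and the difference between the models was 0.03 (SE 0.22, adjusted p = 0.957). The 2 kininogen genes are similar in sequence, so reads may have been split between them. Kng1 over Kng2 in reads averaged 6.31 ± 0.82 in PBC, 5.58 ± 0.59 in PSC and 5.90 ± 0.50 in controls.

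F12, the gene of factor XII, the protease that starts the contact system (chromosome 13, 55417958 to 55426804), had 58044, 42539.8 and 65577 normalised reads in PBC, 39502, 39873 and 44386 in PSC, and 29759, 34186, 24669 and 40352 in control livers. PBC livers lay above all controls, while control 4 lay among the PSC livers. F12 rose in PBC by 0.78 (SE 0.22, adjusted p = 0.039, limma), and its change in PSC was 0.38 (SE 0.22, adjusted p = 0.269). Klkb1, which encodes plasma prekallikrein, is merged with Cyp4v3 in 1 model, so its values are uncertain, and the model changed by 0.22 in PBC (adjusted p = 0.536) and 0.14 in PSC (adjusted p = 0.685). Leaving out 1 liver ended the PBC call of Kng2 for control 1, PBC 7 and PBC 9 (adjusted p from 0.0643 to 0.126). It ended that of Kng1 (0.0552 to 0.161) and of F12 (0.0505 to 0.173) for control 1, 2 and 3, PBC 7 and 9, and each PSC liver. The PSC call of Kng2 was lost without control 1, PSC 13 or PSC 14 (0.0604 to 0.124).

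**Figure D2:**
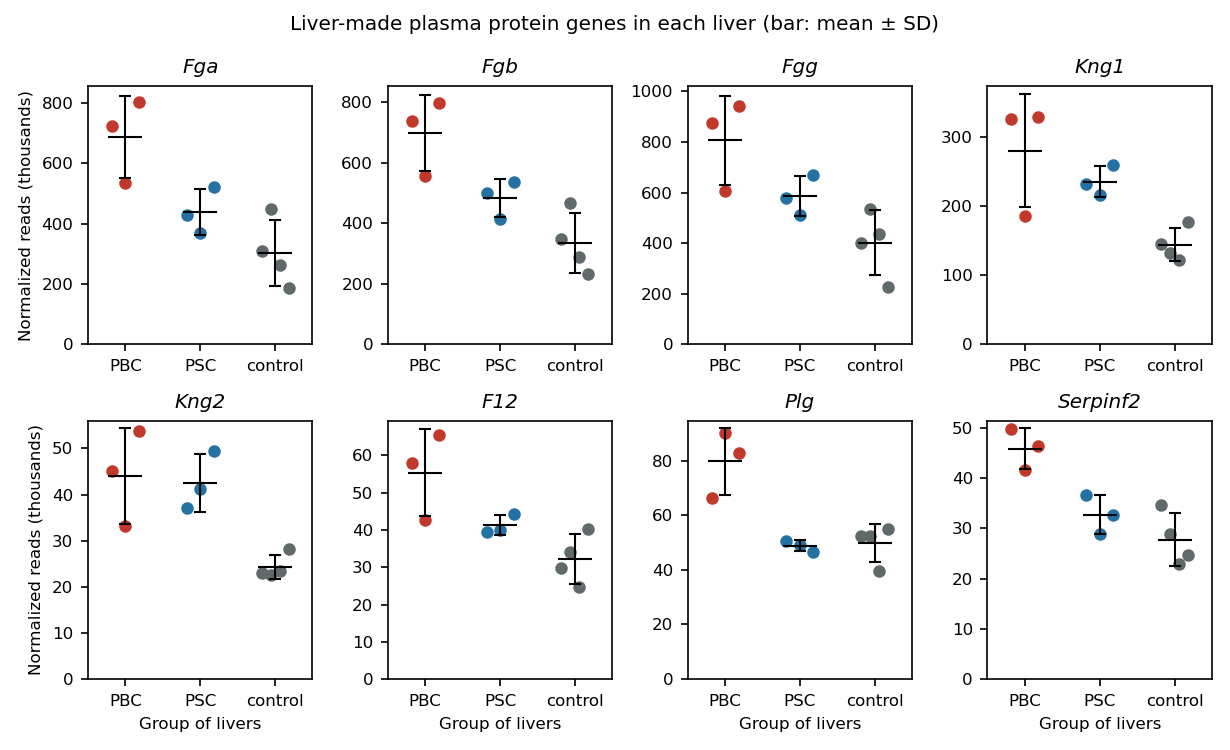
Points are normalised reads in each liver, in units of 1000, for 8 genes of plasma proteins, by group, and bars are the mean ± SD (n = 3, 3 and 4). The 3 PBC livers lie above the 4 controls in all 8 panels, and in the Plg panel the PSC livers, at 46690.2 to 50731 reads, lie among the controls.

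Factor XIII, which cross-links fibrin, has a carrier and a catalytic subunit. F13b, the carrier subunit (chromosome 1, 139501707 to 139523756), had 16584, 20868 and 16843 in PBC, 16814, 18304 and 16094 in PSC, and 25847, 21674, 27854 and 27950.1 in control livers. Every cholangitis liver lay below every control. F13b fell by 0.59 in PSC (SE 0.18, adjusted p = 0.0394, limma), and its change in PBC was -0.51 (SE 0.18, adjusted p = 0.0811), which passed with DESeq2 (adjusted p = 0.0121) and without PBC 8 (adjusted p = 0.033). The PSC call was lost without control 1, 3 or 4, PBC 7 or any 1 of the PSC livers (adjusted p from 0.0507 to 0.163). F13a1, the catalytic subunit, which platelets and macrophages make, was at the limit of detection with 2 to 16 reads in PBC, 2 to 14 in PSC and 0 to 4 in control livers. It was at 0 in 3 controls, and neither change passed (adjusted p = 0.0815 in PBC and 0.206 in PSC). Both passed without control 3 (0.0232 and 0.0496) and with quality weights (0.0247 and 0.0193).

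The remaining clotting factors did not pass in any comparison. F2, the prothrombin gene, averaged 137617 ± 13823 normalised reads in PBC, 116604 ± 11363 in PSC and 104510.5 ± 8451 in controls, with a change of 0.40 in PBC (SE 0.20, adjusted p = 0.219). F5, the cofactor of factor Xa, averaged 3399 ± 257 in PBC, 2797 ± 387 in PSC and 2285 ± 366 in controls, and its PBC change of 0.58 (SE 0.18, adjusted p = 0.0591) passed without control 2 (0.0313) or PBC 8 (0.0395). F7, the protease that pairs with tissue factor, averaged 9431 ± 1006 in PBC, 6105 ± 643 in PSC and 6794 ± 999.7 in controls. F2, F5 and F7 were each higher in every PBC liver than in every control.

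F10, which encodes the protease of the prothrombinase complex, averaged 43242 ± 7219.6 in PBC, 32533 ± 3853 in PSC and 33761 ± 4521 in controls. F9, the haemophilia B gene, averaged 5427 ± 2299.9 in PBC, 4434 ± 359.9 in PSC and 7040.4 ± 1151 in controls. F9 in PBC 8 was at 8076, against 4259.8 and 3944 in PBC 7 and 9, and its PSC change of -0.66 (SE 0.24, adjusted p = 0.0853) passed without PBC 8 (0.0178). F11, the gene of factor XI, averaged 4124 ± 1372 in PBC, 2799 ± 235 in PSC and 3889 ± 887 in controls, and F8, the haemophilia A gene, which endothelial cells make, 1299 ± 519.5 in PBC, 717 ± 50.7 in PSC and 1060.2 ± 340.5 in controls. F3, the tissue factor gene, averaged 96.2 ± 28.4 in PBC, 73.2 ± 23.5 in PSC and 124 ± 22.1 in controls, with a change of -0.77 in PSC (SE 0.32, adjusted p = 0.125). On chromosome 8, F7, F10 and Proz follow each other with gaps of 1498 and 4231 bases, and their changes in PSC were -0.15, -0.05 and -0.73.

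**Figure D3:**
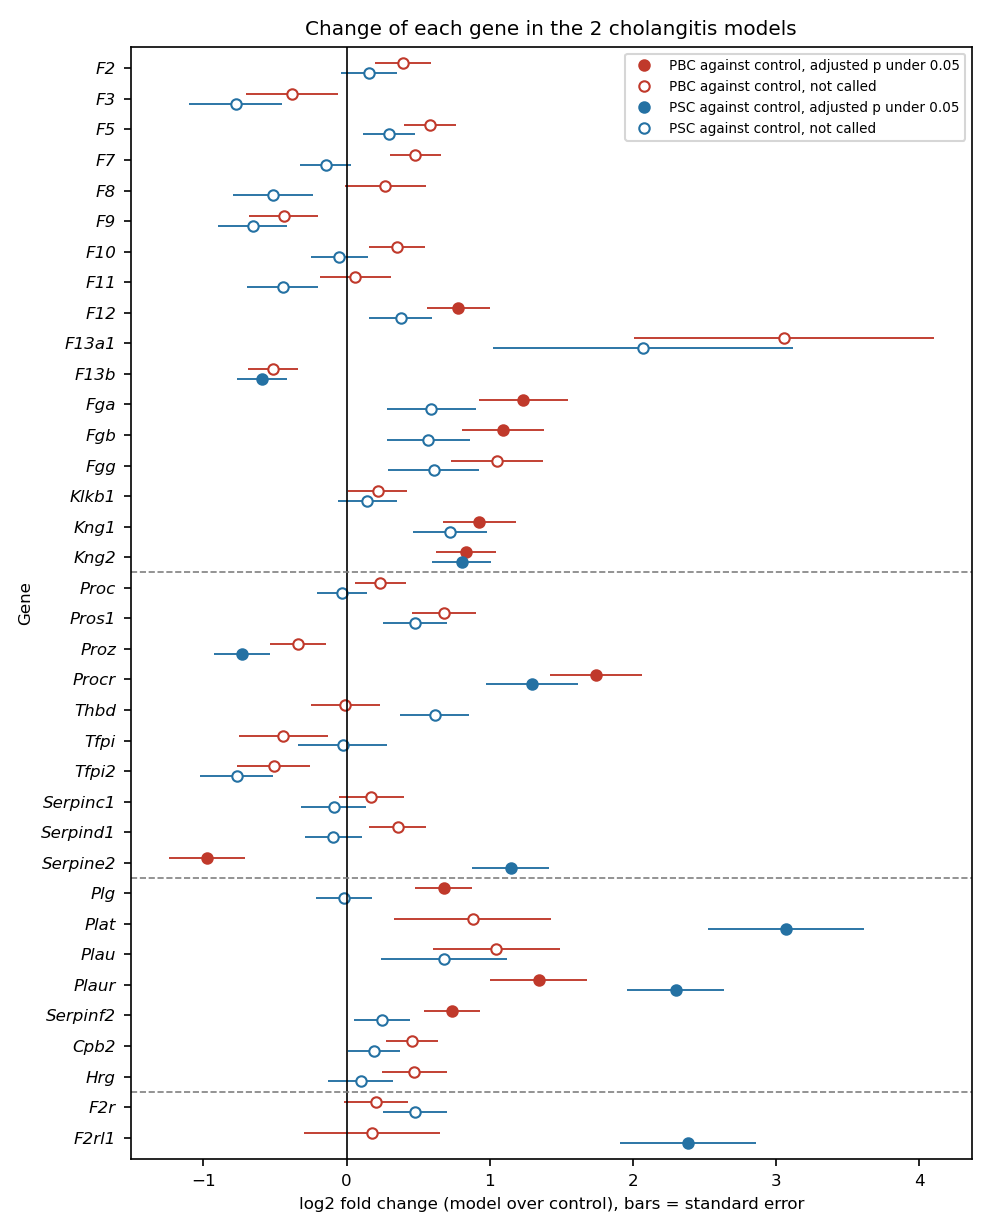
Points are log2 fold changes of each gene against control for PBC (red, upper) and PSC (blue, lower), bars are standard errors, and filled points passed at an adjusted p under 0.05 in limma. Serpine2 is the gene with filled points on both sides of 0, at -0.97 in PBC and 1.15 in PSC, and Plat, Plaur and F2rl1 have their filled PSC points at 3.07, 2.30 and 2.38.

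Of the 10 anticoagulants and inhibitors, 1 rose and 1 fell in PBC (10% each, background 7.6% and 2.34%), with a median change of 0.08. In PSC, 2 rose (20%, background 8.25%) and 1 fell (10%, background 6.48%), with a median of -0.03. Serpine2, which encodes protease nexin-1, an inhibitor of thrombin and plasminogen activators made by stromal and other cells (chromosome 1, 79794197 to 79858665), had 129, 129 and 108 normalised reads in PBC, 491, 579 and 531 in PSC, and 275, 339, 158 and 225 in control livers. The 3 groups did not overlap, with PBC the lowest and PSC the highest. Serpine2 fell by 0.97 in PBC (SE 0.27, adjusted p = 0.0365) and rose by 1.15 in PSC (SE 0.27, adjusted p = 0.0134, limma). The difference of PBC from PSC was -2.12 (SE 0.29, adjusted p = 0.00232, limma), which makes the PBC level 0.230 of the PSC level. These opposite changes were known from the same data when the genes were chosen, so the p-values are not independent of that choice.

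The PBC call of Serpine2 was lost without control 1, 2 or 4, PBC 7, PBC 9 or any 1 of the PSC livers (adjusted p from 0.0529 to 0.134), and the PSC call without PSC 13 or PSC 14 (0.0618 and 0.064). The call between the models was kept under each alternative run. In the same livers, 10 stellate cell and fibroblast markers had a summed level of 17510 to 31948 normalised reads in PBC, 55854 to 60872 in PSC and 15182 to 23538 in control livers. Of these markers, 4 rose in PBC and 5 in PSC, and 4 were lower in PBC than in PSC (2 without PSC 14). A further 1, Thy1, which T cells also express and which was named after its values were seen, was higher in PBC than in PSC. All 10 were detected in each group, and their part in the Serpine2 values was not tested.

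Procr, which encodes the endothelial protein C receptor (chromosome 2, 155751116 to 155755478), had 348, 752 and 330.1 in PBC, 332, 270.1 and 378 in PSC, and 109, 127, 194 and 111 in control livers. All 6 cholangitis livers lay above all controls, and PBC 8 stood above the other 5. Procr rose in PBC by 1.74 (SE 0.32, adjusted p = 0.00449) and in PSC by 1.29 (SE 0.32, adjusted p = 0.0182, limma). The PSC call was lost without control 1, PSC 11 or PSC 14 (adjusted p from 0.0534 to 0.0957). Of 10 sinusoidal endothelial markers, 1 rose in PBC (0 without control 1, control 4, PBC 7 or PBC 9), and 1 rose (0 without PSC 11 or 14) and 1 fell in PSC (0 without control 1, 2 or 4 or any PSC liver). Their summed level was 12615 to 22082 in PBC, 12527 to 17495 in PSC and 14280 to 21564 in control livers, so that it did not separate the groups.

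Thbd, the thrombomodulin gene, whose product turns thrombin towards protein C, averaged 386 ± 105 in PBC, 589.8 ± 126 in PSC and 380.1 ± 37.0 in controls. Every PSC liver lay above every control, but the change of 0.62 (SE 0.24) did not pass (adjusted p = 0.101). Proc, the protein C gene, averaged 24976 ± 3549 in PBC, 20681 ± 1902 in PSC and 21139 ± 1936 in controls, and Pros1, its cofactor protein S, 2483 ± 699 in PBC, 2119 ± 291 in PSC and 1530.2 ± 300.0 in controls. The PBC change of Pros1 was 0.68 (SE 0.22, adjusted p = 0.0701), which passed without control 4 (0.0471).

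Proz, the gene of protein Z, a cofactor for inhibiting factor Xa (chromosome 8, 13060908 to 13076026), had 5446, 9110.2 and 6079 in PBC, 5519, 5250.2 and 4618 in PSC, and 9539, 7762, 7947 and 8774 in control livers. PSC livers all lay below the controls, while PBC 8 lay among the controls and PBC 7 and 9 below them. Proz fell by 0.73 in PSC (SE 0.20, adjusted p = 0.0269, limma), which was lost without control 1, control 4 or any 1 of the PSC livers (adjusted p from 0.0502 to 0.131). In PBC the change was -0.34 (SE 0.20, adjusted p = 0.299), or an adjusted p of 0.0423 without PBC 8.

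Serpinc1, which encodes antithrombin, averaged 247539.6 ± 34136 in PBC, 205225 ± 11445 in PSC and 220670.0 ± 40233 in controls, with changes of 0.17 (adjusted p = 0.672) and -0.09 (adjusted p = 0.826). Serpind1, the heparin cofactor II gene, averaged 46175 ± 2823 in PBC, 33828 ± 2268 in PSC and 36585 ± 7222 in controls. Of the inhibitors of the tissue factor pathway, Tfpi averaged 296 ± 160.3 in PBC, 362 ± 43.6 in PSC and 372 ± 64.5 in controls, and its PBC change of -0.44 (adjusted p = 0.394) passed without PBC 8 (0.0331). Tfpi2 averaged 3774 ± 593 in PBC, 3129.7 ± 52.2 in PSC and 5644 ± 2423 in controls, where control 3 stood at 9235 and the others at 4007 to 4930.1. Its PSC change was -0.77 (SE 0.25, adjusted p = 0.0598), which passed with edgeR (0.0456) and DESeq2 (0.016).

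Of the 7 genes of fibrinolysis, 3 rose in PBC (42.9%, background 7.6%), with a median change of 0.74. The 7 include Serpinf2 and Cpb2, whose products inhibit fibrinolysis, and Serpinf2 was among the 3, so the count gives no direction of fibrinolysis. In PSC, 2 rose (28.6%, background 8.25%), with a median of 0.25. Plat, which encodes tissue plasminogen activator (chromosome 8, 22757722 to 22782847), had 67.1, 112 and 16.9 normalised reads in PBC, 189, 252 and 271 in PSC, and 41.5, 15.4, 33.2 and 25.0 in control livers. Every PSC liver lay above all others, and PBC 9 lay among the controls. Plat rose in PSC by 3.07 (SE 0.55, adjusted p = 0.00297, limma), 8.40-fold, with 156 to 201 reads per PSC liver and 12 to 32 per control liver. In PBC the change was 0.88 (SE 0.55, adjusted p = 0.329), or 1.64 without PBC 9 (adjusted p = 0.0542). The difference of PBC from PSC was -2.19 (SE 0.58, adjusted p = 0.072), or -1.43 without PBC 9, and it passed without PBC 8 (0.0306) and with DESeq2 (0.00948).

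Plaur, the urokinase receptor gene (chromosome 7, 24462428 to 24475968), had 84.5, 167 and 163 in PBC, 244, 215 and 325 in PSC, and 50.5, 35.9, 71.5 and 54.1 in control livers. The 3 groups did not overlap. Plaur rose in PBC by 1.34 (SE 0.34, adjusted p = 0.0254) and in PSC by 2.30 (SE 0.34, adjusted p = 0.000919, limma), and the difference of PBC from PSC was -0.96 (SE 0.36, adjusted p = 0.183). The PBC call was lost without control 1 or PBC 9 (0.0581 and 0.112). Plau, the gene of urokinase itself, averaged 115 ± 29.1 in PBC, 88.2 ± 15.7 in PSC and 63.5 ± 44.2 in controls, with a PBC change of 1.05 (SE 0.44, adjusted p = 0.148), or an adjusted p of 0.0297 without control 4. The summed level of 10 monocyte and recruited macrophage markers was 85871 to 87541 in PBC, 69942 to 84010 in PSC and 22534 to 48475 in control livers, and that of 8 neutrophil markers was 37722 to 111172 in PBC, 8944 to 16242 in PSC and 407 to 6545 in control livers. Fn1, named here because of its level, reached 70116 by itself, so the monocyte and macrophage sum is weighted towards this gene. By gene, 8 of these 10 markers rose in PBC and 9 in PSC. Between the models, 1 was higher and 4 were lower in PBC, with a median of -0.90. Leaving out single livers gave 0 to 2 higher and 1 to 4 lower. All markers of both lists were detected in each group, and their part in the Plaur values was not tested.

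Plg, the plasminogen gene (chromosome 17, 12378608 to 12419384), had 66292, 90168 and 82723 in PBC, 50731, 49191 and 46690.2 in PSC, and 52420.3, 52535, 39559 and 54898 in control livers. PBC livers lay above all others, and PSC livers lay within the range of the controls. Plg rose in PBC by 0.68 (SE 0.20, adjusted p = 0.0459, limma), a call lost on omission of any liver other than control 4 (adjusted p from 0.0578 to 0.152) and with edgeR (0.0619). In PSC the change was -0.02 (SE 0.20, adjusted p = 0.963), and the difference of PBC from PSC was 0.70 (SE 0.21, adjusted p = 0.111), which passed with DESeq2 (0.0273).

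Serpinf2, which encodes α2-antiplasmin, the main inhibitor of plasmin (chromosome 11, 75431736 to 75439504), had 49820.0, 41555 and 46359 in PBC, 36638, 28881 and 32615 in PSC, and 34712, 28876, 22911 and 24665 in control livers. PBC livers lay above all others, and PSC livers overlapped the controls. It rose in PBC by 0.74 (SE 0.20, adjusted p = 0.0321, limma), a call lost without control 3 or 4, PBC 7 or 9, or PSC 13 or 14 (0.0508 to 0.115). Cpb2, which encodes an inhibitor of fibrinolysis activated by thrombin, averaged 48694 ± 3005 in PBC, 40702 ± 5643 in PSC and 35524 ± 3726 in controls, with every PBC liver above every control and a change of 0.46 (SE 0.18, adjusted p = 0.126). Hrg, the gene of histidine-rich glycoprotein, which binds plasminogen, averaged 28021 ± 2437 in PBC, 21534 ± 232 in PSC and 20866 ± 6592 in controls.

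**Figure D4:**
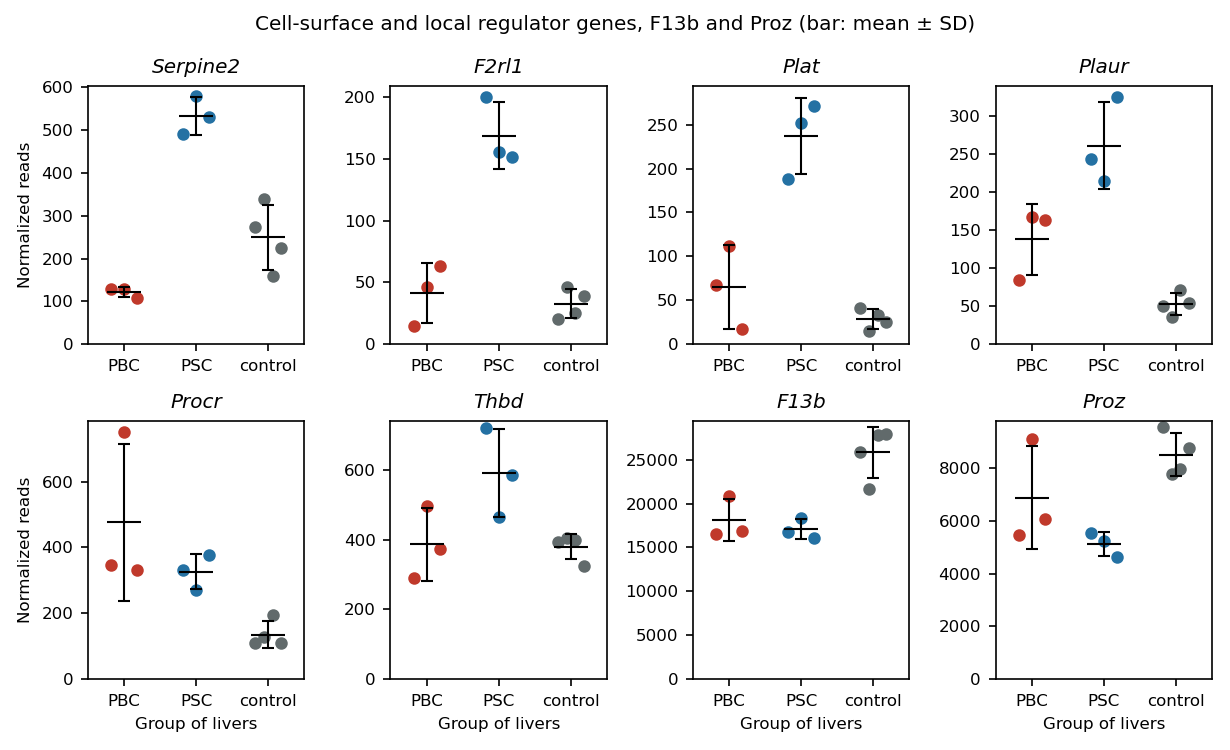
Points are normalised reads in each liver for 6 genes of cell surface or local regulators and for the plasma protein genes F13b and Proz, by group, and bars are the mean ± SD (n = 3, 3 and 4). In the Serpine2 panel the groups are separate, with PBC at 108 to 129, PSC at 491 to 579 and controls at 158 to 339 reads, and in the F2rl1 and Plat panels the PSC livers lie above all others.

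Of the 2 receptors, 1 rose in PSC (background 8.25%). F2rl1, which encodes protease-activated receptor 2, a receptor for trypsin-like proteases and for factor VIIa with tissue factor (chromosome 13, 95511732 to 95525240), had 14.9, 46.2 and 63.5 in PBC, 199.8, 155 and 151 in PSC, and 20.7, 46.2, 25.6 and 38.9 in control livers. Every PSC liver lay above all others, and the PBC livers spanned the controls. F2rl1 rose in PSC by 2.38 (SE 0.48, adjusted p = 0.0059, limma). Its difference of PBC from PSC was -2.21 (SE 0.51, adjusted p = 0.0401). The call between the models rested on 6 to 30 reads per PBC liver and was lost without PBC 7, PBC 8 or any 1 of the PSC livers (adjusted p from 0.0528 to 0.143), with a value of -1.61 without PBC 7. In PBC against control the change was 0.18 (SE 0.48, adjusted p = 0.851), or 0.77 without PBC 7.

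F2r, which encodes protease-activated receptor 1, the main thrombin receptor of stromal and endothelial cells, lies 76.5 kb from F2rl1. It averaged 1559 ± 446 in PBC, 1846 ± 307 in PSC and 1326 ± 212 in controls. The PSC livers lay above the controls, but the change of 0.48 (SE 0.22) did not pass (adjusted p = 0.173). In PBC, 0 of the 2 receptors passed with limma, edgeR or DESeq2, or at an unadjusted p under 0.05. Of 10 cholangiocyte markers, 2 rose in PBC (1 whichever liver was left out) and 8 rose in PSC. Their summed level was 10847 to 14649 in PBC, 57241 to 97218 in PSC and 8411 to 13807 in control livers. Spp1, named here because of its level, reached 91720.56 by itself in PSC, so the cholangiocyte sum is weighted towards this gene. All 10 markers were detected in each group, and their part in the F2rl1, Plat and Serpine2 values was not tested.

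Genes outside the 36 were read from lists chosen by function. Of 8 genes of the vitamin K cycle, γ-carboxylation and factor secretion, through which several clotting factors become active and leave the cell, 0 were called in PBC with limma, against 2 at an unadjusted p under 0.05, 0 with edgeR and 1 with DESeq2. That 0 became 1 lower without control 2 or without PBC 8. In PSC, 1 was lower (background 6.48%). Lman1, whose product carries factors V and VIII out of the endoplasmic reticulum, fell by 1.00 (SE 0.27, adjusted p = 0.0251, limma). It averaged 3573 ± 1485 in PBC, 2320.4 ± 145 in PSC and 4778 ± 1454 in controls, and the call was lost without control 4 or any 1 of the PSC livers (0.0547 to 0.107), with equal totals (0.061) and without both control 2 and PBC 7 (0.0557).

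Of 12 liver transcription factors, 1 fell in PSC (background 6.48%) and 0 were called in PBC with limma. At an unadjusted p under 0.05, 7 were lower in PSC and 6 in PBC. With edgeR 0 were lower in PSC and 1 in PBC, and with DESeq2 2 in each. The 0 in PBC became 1 lower without control 3, control 4, PBC 7 or PBC 8. The median change of the list was -0.51 in PSC and -0.43 in PBC, against 0.06 and 0.01 over all genes. Hnf4a, a regulator of many hepatocyte genes, averaged 6406.0 ± 3201 in PBC, 4326 ± 806 in PSC and 8178 ± 1816 in controls. It fell by 0.91 in PSC (SE 0.29, adjusted p = 0.0488, limma), and the call was lost without any 1 of control 1, 2 or 4, PBC 9, or the PSC livers (0.0559 to 0.173). It was also lost with edgeR (0.0591), a pseudocount of 0.5 (0.051), no filter (0.064), TMM scaling (0.0518), equal totals (0.102) and without both control 2 and PBC 7 (0.0849). The count in PSC became 2 without control 3 or without PBC 8.

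Of 25 other tested haemostasis genes, 11 rose in PBC and 13 in PSC, and 1 was higher and 2 were lower in PBC than in PSC. The PBC count was 5 without PBC 9, 6 without PBC 7, and 7 without control 1 or PSC 13, and the PSC count was 5, 7 and 8 without PSC 14, 11 and 13. Between the models, the 1 higher became 0 without control 1, PBC 7, PBC 9, PSC 13 or PSC 14, and the 2 lower became 1 without PBC 7, PBC 8 or any PSC liver. Tgm2, a transglutaminase related to factor XIII, averaged 29984 ± 6537 in PBC, 32893 ± 6918 in PSC and 9783 ± 1834 in controls, and rose in both models, by 1.61 (adjusted p = 0.000713) and 1.74 (adjusted p = 0.000331). A2m, which encodes a broad protease inhibitor, averaged 59.3 ± 12.9 in PBC, 105 ± 56.0 in PSC and 3.31 ± 3.92 in controls, and rose in both (adjusted p = 0.0042 in PBC and 0.00158 in PSC).

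Anxa2, whose product binds plasminogen and its activator at the cell surface, averaged 3362 ± 467 in PBC, 9749 ± 1715 in PSC and 1942 ± 479 in controls. It rose in PSC by 2.35 (SE 0.22, adjusted p = 2.94e-05) and in PBC by 0.82 (SE 0.22, adjusted p = 0.0358, limma), the second of which was lost without control 1, 2 or 4, PBC 7 or 9, or PSC 11 or 13 (0.0505 to 0.144). The difference of PBC from PSC in Anxa2 was -1.53 (SE 0.24, adjusted p = 0.0052). Anxa5, which shields anionic phospholipid from clotting factors, averaged 8263 ± 784 in PBC, 16256 ± 1488 in PSC and 5852 ± 1264 in controls. It rose in PSC (adjusted p = 0.000359, limma). Its difference of PBC from PSC was -0.98 (SE 0.21, adjusted p = 0.0268), lost without PBC 7, PBC 8 or any 1 of the PSC livers (0.0602 to 0.151).

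Of 12 tested platelet and megakaryocyte markers, 8 rose in PBC (4 without PBC 9) and 3 in PSC (1 without PSC 11 or without PSC 14). Ppbp, a chemokine of platelet granules, averaged 555 ± 458 in PBC, 152 ± 110 in PSC and 30.3 ± 8.83 in controls, and rose by 3.89 in PBC (SE 0.53, adjusted p = 0.000603, limma) and by 2.09 in PSC (SE 0.53, adjusted p = 0.0193, lost without control 1, PSC 11 or PSC 14). Pf4, another platelet chemokine, averaged 531 ± 228 in PBC, 638 ± 101 in PSC and 156 ± 44.9 in controls, and rose in both (adjusted p = 0.00408 and 0.00111). The summed level of the 13 markers was 3412 to 7063 in PBC, 2719 to 3728 in PSC and 1461 to 1952 in control livers, with 0 markers undetected in a whole group. Clec1b, named here because of its level, reached 3303 by itself, so the sum is weighted towards this gene. The part of these markers in the values of F13a1, which platelets also make, was not tested.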

How the data were processed

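RNA of 10 livers was sequenced in stranded poly(A) libraries as paired reads of 75 bases, per the labels' protocols. The submitters' processing notes name STAR 2.4.0, SAMtools, Picard, FastQC, DESeq2 and the build mm10. How reads were counted, with or without strand, and where they fit several genes, is not stated in any source used here. The deposited signal holds reads for each gene model, scaled by the authors with DESeq2. Dividing a library by its smallest step gave whole numbers for 100% of values (within 0.1), so whole reads were recovered. On average, 572.7 models per liver held 1 read and 2263.4 held 2. The 2 reads of a pair may have been counted separately, which was not tested. Depth and the read numbers given may then exceed the number of sequenced fragments. The counts used by edgeR and DESeq2 share this limit. Depth, 38.3 to 95.4 M reads, limits precision for F13a1, F2rl1 and Plat.

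The main test was limma 3.58.1 (R 4.3.3) (trend option) on log2(value + 1) over the 10 livers together, for the 18390 models that reached 10 in 3 or more libraries. Benjamini-Hochberg adjusted p-values were judged at 0.05. It called 1398 higher and 430 lower genes in PBC, 1518 and 1192 in PSC, and 204 and 208 in PBC against PSC. On the recovered reads, edgeR 4.0.16 called 1225 higher and 345 lower in PBC, 1436 and 1176 in PSC, and 203 and 213 in PBC against PSC, and DESeq2 1.42.0 called 1660 and 909, 1878 and 1929, and 590 and 623. Nothing says how mice were housed or processed in batches, so p-values measure the spread between these mice, and read counts cover counting error only. The fit was tested on simulated data with known changes. In PBC against control, PSC against control and PBC against PSC, it recovered 66.7%, 64.8% and 67.4% of 4-fold changes. Of 2-fold changes it recovered 9.43%, 12.0% and 6.60%. A change that did not pass is therefore not shown to be absent. Alternatives were pseudocounts of 5 and 0.5, no filter, a filter at 50, TMM scaling, equal totals, both count tools, only the compared groups, quality weights and each liver left out.

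All 36 genes are described, those called in a comparison with every value. From the other lists, up to 4 genes with the smallest adjusted p could be named. The genes and lists were chosen with earlier results of these data known, among them the opposite changes of Serpine2. Serpina5 (at most 42.36 normalised reads) and Gp6 (8.46) of the lists failed the filter, and Trac was not matched. Sums of marker lists include all matched genes. Promoter sequences are the first RefSeq entry per gene.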

Additional observations from a re-analysis of the deposited data

Results flagged for a closer look

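In 6 of the 36 genes, 1 of the 4 control livers stood far from the other 3 by the Dixon ratio, its gap to the nearest liver over the range. The cut-off corresponds to about 1 in 20 only for independent, normally spread values. These genes share the same 4 livers, so the count cannot be set against chance. F13a1 had 10.22 normalised reads in control 3 and 0 in the other controls, which fixes its ratio at 1.0 whatever the value. Kng2 had 28265.29 in control 4, against 22494 to 23384, and Serpinc1 had 280660.67 in control 4, against 194623 to 204868. Thbd had 324.87 in control 4, against 394 to 403. Tfpi had 275.98 in control 2, the liver with the high mitochondrial share, against 396 to 416. Plg had 39559.13 in control 3, against 52420 to 54898. Serpine2 differed between the 2 models, with an effect in PBC minus that in PSC of -2.12, and moved in opposite directions in all livers of the models relative to the controls. This contrast was known from these data when the genes were chosen, so it is not a separate finding.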

How the results depend on the processing

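No paired analysis was possible because the groups share no mouse numbers. No call reversed its direction. Equal totals moved the median change of all genes in PBC against control to -0.12, against 0.01, and changes there are relative to it. Settings not named kept the counts within 1.5 times. Members called higher in PBC against control, 9 in the report, numbered 3 without a filter, 1 with only the compared groups, 14 with quality weights and 3 without both control 2 and PBC 7 (1 to 10 over single livers left out). Members called lower, 1 in the report, numbered 0, 0, 5 and 0 in these settings and 2 each with TMM scaling and DESeq2 (0 to 5). All genes higher numbered 853 with equal totals, 752 with only the compared groups, 2425 with quality weights and 853 without both livers (684 to 1818), and all lower 909 with DESeq2, 89, 1803 and 196 with the last 3 of these (65 to 1574). In PSC against control, quality weights gave 13 members higher, against 6 (3 to 7), and 6 lower, against 2 (0 to 4), with 1 lower without a filter and 0 with equal totals. All genes higher in PSC numbered 3899 with quality weights (711 to 1915), and all lower 669 with equal totals, 1929 with DESeq2, 1853 with only the compared groups, 3404 with quality weights and 754 without both livers (251 to 1899). In PBC against PSC, members higher numbered 1 with DESeq2 and 2 with quality weights, against 0 (0 to 0), and members lower 1 without a filter, with equal totals or without both livers, against 2 (1 to 2). All genes higher in PBC than in PSC numbered 128 with equal totals, 590 with DESeq2, 658 with quality weights and 95 without both livers (59 to 261), and all lower 623 with DESeq2 and 701 with quality weights (42 to 301). The causes were not tested.

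Other settings ended calls of single genes. With only the compared groups, Fga, Fgb, Kng1, Kng2, F12, Plg, Plaur, Serpinf2 and Serpine2 lost their PBC calls (adjusted p from 0.0636 to 0.12). Without a filter Fga, Fgb, Kng1, F12, Plg, Serpinf2 and Serpine2 did (0.0538 to 0.144), as did F13b in PSC (0.0759) and F2rl1 between the models (0.0638). Anxa2 lost its PBC call with equal totals (0.0888), only the compared groups (0.0827) and without both control 2 and PBC 7 (0.0748), and Anxa5 its call between the models without both (0.0882). edgeR ended the PBC call of Plg. Quality weights added calls of Cpb2, F13a1, F5, Fgg and Pros1 (higher) and F13b, F9, Proz and Tfpi (lower) in PBC, of F7, Plg and Plat between the models, and in PSC of F5, F8, F9, F11, F12, F13a1, Kng1, Pros1, Thbd, Tfpi2 and F2r. Fgg was also called in PBC, and Kng1 in PSC, with equal totals. Equal totals ended the PBC calls of F12, Plg, Plaur and Serpinf2, the PSC calls of F13b and Proz, and that of F2rl1 between the models (0.0521 to 0.149). TMM scaling ended the PBC calls of F12, Plg and Serpinf2 (0.0545 to 0.0774). Leaving out both control 2 and PBC 7, chosen after seeing the data, ended those of Fgb, Kng1, Kng2, F12, Plg, Serpinf2 and Serpine2 in PBC, of Kng2 in PSC and of F2rl1 between the models (0.0644 to 0.198). Depth limits F2rl1 in PBC, at 6 to 30 reads, and F13a1, at 0 to 16.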
